A study of Mus musculus with 20 samples.

Results

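The 9 genes described here move water and sodium across the corneal epithelium: the aquaporins *Aqp3* and *Aqp5*, the sodium channel subunit *Scnn1a*, the sodium, potassium and chloride cotransporter *Slc12a2*, the sodium pump beta subunits *Atp1b1* and *Atp1b3*, and the pump regulators *Fxyd3*, *Fxyd4* and *Fxyd5*. They were taken by symbol from a table of 24552 genes. *Fxyd4* was chosen by its rise with age in these libraries, so its differences between ages are given as a description and carry no test. Of the 9 genes, 8 had a mean of at least 10 normalized reads over the 20 libraries and entered the fit across 11288 genes. *Fxyd5* did not.

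The study compared naïve female wild-type C57BL/6J mice at 4 ages, with 5 libraries each: 2 to 3 months (young), 12 to 13 months, 18 to 19 months and 24 to 25 months. No group carried a transgene or a treatment. Each library held the epithelium debrided from both corneas of 1 animal, and the mice had been bought, aged in house or obtained from an ageing colony, with no source given per library. Reads were counted near the 3′ end of transcripts, since reverse transcription started from an oligo-dT primer.

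Between 6699383 and 10762360 reads were counted per library. All 10 corneal epithelium markers, led by the keratin *Krt12*, were measured in every age, and their summed level was 592458 to 803136 normalized reads in young libraries and 662104 to 770433 in aged ones. Markers of other cell types were present at lower levels. The summed level of 10 stromal keratocyte genes, all in the table, was 3238 to 5851 in young libraries and 2029 to 3774 in the 15 aged libraries, and that of 11 lacrimal and other gland genes was 787 to 10579 in young and 149 to 504 in aged libraries. No gene of these lists was at 0 in every library. In these bulk samples, fewer cells of a type and less RNA per cell cannot be told apart. The 18-month replicate 2 had the lowest mean correlation with the other libraries, 0.902, where the other 19 lay between 0.910 and 0.942. The 12-month replicate 3 stood apart in its markers, with a melanocyte sum of 1049 where the others had 44.2 to 133, and an endothelial sum of 567 where the others had 19.8 to 179.

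The sodium pump exports sodium and imports potassium at the expense of ATP, and it sets the gradient on which channels and cotransporters depend. Its beta subunits bring the assembled pump to the membrane, and FXYD proteins, small single-span membrane proteins, tune its affinity and speed. In a surface epithelium sodium enters through the apical channel ENaC, chloride through the basolateral cotransporter NKCC1, and water follows through aquaporins.

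*Atp1b1* was the member called higher in aged epithelium, and *Fxyd4* the one listed for its rise. *Fxyd4* lies at chr6:117933558-117937714 and *Atp1b1* at chr1:164437099-164458355, both on the minus strand of GRCm38. As the results turn on these genes, the RefSeq promoter windows of GRCm38.p6 are shown for both, each 250 bases before to 50 bases after a transcript start, written 5′ to 3′ along the gene, with the GC box GGGCGG in capitals on whichever strand it was found (CCGCCC where it lies on the other strand). The *Fxyd4* window is chr6:117937286-117937585 and the *Atp1b1* window chr1:164458306-164458605. All of the *Fxyd4* window lies inside the gene span given above, so its transcript starts within that span. The *Atp1b1* window covers the 5′ end of its gene.
Fxyd4 promoter: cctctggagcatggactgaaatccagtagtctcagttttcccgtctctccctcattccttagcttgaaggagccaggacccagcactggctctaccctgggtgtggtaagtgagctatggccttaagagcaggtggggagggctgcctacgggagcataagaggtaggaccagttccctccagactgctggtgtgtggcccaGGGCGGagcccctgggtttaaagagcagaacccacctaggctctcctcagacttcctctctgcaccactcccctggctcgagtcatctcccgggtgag
Atp1b1 promoter: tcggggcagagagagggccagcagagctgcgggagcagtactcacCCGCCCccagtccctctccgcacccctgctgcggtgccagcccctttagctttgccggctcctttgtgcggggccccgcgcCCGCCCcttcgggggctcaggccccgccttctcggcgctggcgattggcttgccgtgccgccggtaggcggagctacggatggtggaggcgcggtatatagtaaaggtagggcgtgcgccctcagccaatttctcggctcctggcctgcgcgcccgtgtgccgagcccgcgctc

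The GC content was 58.7% in the *Fxyd4* window and 71% in that of *Atp1b1*. The *Fxyd4* window held 1 GC box, which began 48 bases upstream of the start. The *Atp1b1* window held 2, at 205 and 124 bases upstream, both on the opposite strand. Of 32544 distinct RefSeq mouse promoter sequences of this length, with chromosome 18 left out, 35.9% held the motif on either strand. The steroid receptor motif AGAACA, the TATA box TATAAA and the E box CACGTG, searched on both strands as exact letters, were in neither window. They were in 18.9%, 13.6% and 7.17% of the same set of promoters. Variants were not searched, so tatata in the *Atp1b1* window and tttaaa in the *Fxyd4* window were not counted. A TATA element is therefore not excluded in either. A match of letters is a description of the window. RefSeq promoters were matched for 7 of the 9 members.

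*Fxyd4* encodes the corticosteroid-induced FXYD protein of the kidney collecting duct, which raises the pump's affinity for sodium. Young libraries held 61.4, 22.5, 74.9, 31.8 and 46.5 normalized reads in replicates 1 to 5, from 30 to 82 actual reads. The 12-month libraries held 142, 112, 159.6, 253 and 90.5. At 18 months the values were 100.0, 202, 191, 139.8 and 111, and at 24 months 137, 78.9, 187, 104 and 108. The lowest aged value, 78.9, lay just above the highest young value, 74.9, so all 15 aged libraries were above all 5 young ones. The groups were close at that edge, and the spread within them was wide, with a coefficient of variation of 45.0% in young libraries and 30.9% to 41.3% in the aged groups, where counting alone would give 14.2% and 8.08% to 8.63%. The mean was 47.4 ± 21.3 (SD, n = 5) at 2 months, 151 ± 62.6 at 12, 149 ± 45.9 at 18 and 123 ± 41.4 at 24 months. The fitted level was 3.22-fold, 3.24-fold and 2.68-fold that of young libraries in turn, and 3.04-fold over the 15 aged libraries. Across all genes tested, 0.159% had all 15 aged libraries above all 5 young ones, and *Fxyd4* was listed from that very contrast. At 12, 18 and 24 months alone, 0.921%, 1.04% and 1.26% of genes had no overlap with young libraries and were higher. The 24-month level differed from the 12-month level by −0.27 on the log2 scale.

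*Atp1b1* encodes the beta 1 subunit of the sodium pump. Its values in young libraries were 149, 139, 115, 131 and 171 normalized reads. At 12 months they were 206, 230.2, 339, 257 and 152. At 18 months they were 224, 283, 269, 323 and 222, and at 24 months 251, 204, 272, 195 and 201. The 18-month and 24-month libraries were all above every young library, and 4 of 5 were at 12 months, where replicate 5 fell inside the young range. Of all genes tested, 1.04% at 18 months and 1.26% at 24 months had no overlap in this direction.

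*Atp1b1* was the single tested member that was called, which required a limma adjusted p (Benjamini-Hochberg over 11288 genes) of 0.05 or less and a difference of at least 1.2-fold. At 18 months its mean rose from 141 ± 20.7 to 264 ± 42.4 (SD, n = 5 each), a log2 fold change of 0.90 (SE 0.193, limma adjusted p = 0.0153), or 1.87-fold with a 95% interval of 1.42 to 2.45. Over the 15 aged libraries together the rise was 1.69-fold (interval 1.35 to 2.12, limma adjusted p = 0.00827), and 14 of the 15 were above every young library. The share of all genes with at least 14 of 15 above was not worked out. At 12 months the mean was 237 ± 68.9, a log2 difference of 0.71 (limma adjusted p = 0.107), and at 24 months 225 ± 34.7, a log2 difference of 0.67 (limma adjusted p = 0.122). These did not pass the threshold. The 24-month and 12-month levels differed by −0.04 (limma adjusted p = 0.951, 95% interval −0.43 to 0.36). Of the 7 members tested, 1 was called at 18 months, against 0.673% of all genes, and 1 over the aged libraries, against 1.01%. None was called at 12 months (0.532% of all genes), at 24 months (0.78%) or between 24 and 12 months (0.195%), where 1, 2 and 0 members had an unadjusted limma p under 0.05, against 9.56%, 9.97% and 14.7% of all genes.

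The 18-month call rested on single libraries at its edge. Without young replicate 3, the lowest young library, the limma adjusted p was 0.0592, and without 18-month replicate 4, the highest of its group, it was 0.0682. Without 18-month replicate 2, the library least like the others, the log2 fold change was 0.87 (limma adjusted p = 0.0434). Without 12-month replicate 5 the 12-month difference reached 0.85 (limma adjusted p = 0.0286). Without 12-month replicate 3, which had the highest *Atp1b1* and the most melanocyte and endothelial marker reads, it was 0.56 (limma adjusted p = 0.286), and that over the aged libraries was 0.72 (limma adjusted p = 0.0124). Without that library the *Fxyd4* difference at 12 months was 1.65. The call over the 15 aged libraries held without each library in turn, with limma adjusted p between 0.00179 and 0.0493. The stromal and gland marker sums had lower medians in each aged group (2340 to 2889 against 4998, and 308 to 333 against 2019), opposite to *Atp1b1* and *Fxyd4*. So did the larger conjunctiva and goblet cell sum (27053 to 28317 against 36535) and the leukocyte sum (895 to 1090 against 1338). The endothelial median was higher at 12 and 18 months (81.8 and 131 against 68.2) and lower at 24 months (32.5). Within the stromal list *Aldh1a1* went the other way, with a mean of 1220 in young and 1889 in aged libraries, while *Col1a1* was at 929 and 104 and *Col1a2* at 1204 and 199.9. The part of other cell types in these differences was not tested.

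**Figure D1:**
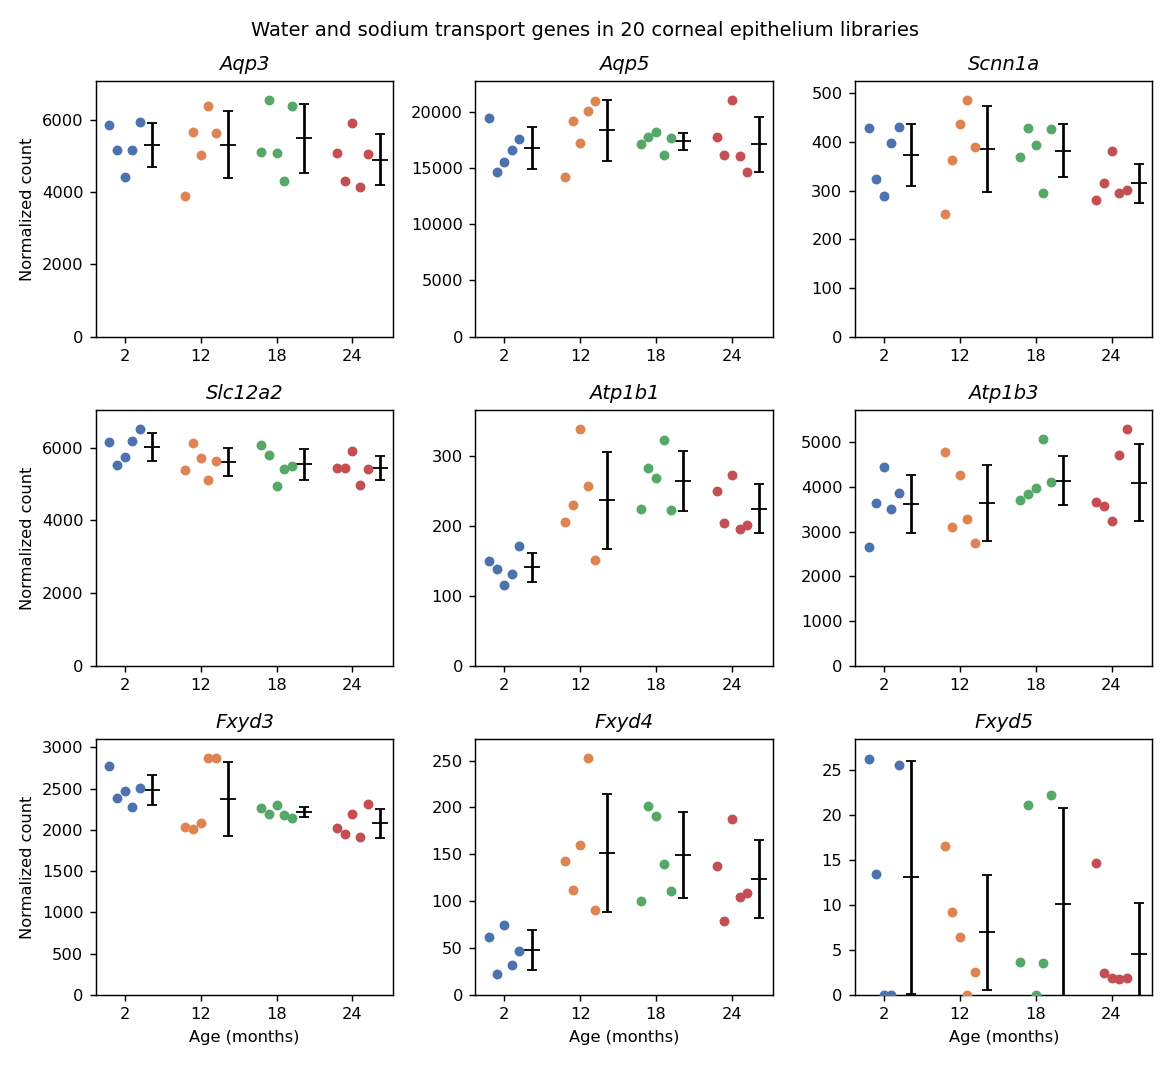
Normalized read count (vertical axis, from 0) of each member in the 5 libraries of each age (horizontal axis, months). Points are libraries in replicate order and the bar beside them is the mean ± SD (cut at 0 for *Fxyd5*). *Fxyd4* in all 15 aged libraries and *Atp1b1* in 14 of 15 lie above all young libraries, while the other members overlap between ages.

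*Atp1b3*, the other beta subunit among the members, lies at chr9:96332655-96364431 and is found in many epithelia. Its mean was 3623 ± 649 in young libraries and 3645 ± 855, 4144 ± 542 and 4099 ± 869 at 12, 18 and 24 months. The ranges overlapped at each age, from 2656 to 4449 in young and from 2749 to 5298 in aged libraries. The log2 differences from young were −0.0027, 0.20 and 0.17 (limma adjusted p = 0.999, 0.887 and 0.757), with 95% intervals of −0.32 to 0.31, −0.11 to 0.52 and −0.14 to 0.49. Over the aged libraries the interval for the fold ran from 0.911 to 1.30, where that of *Atp1b1* ran from 1.35 to 2.12.

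The balance of the beta subunits was compared within libraries as the log2 ratio of *Atp1b1* to *Atp1b3*, a measure free of library scaling, though not of the unequal recovery of the 2 transcripts. The mean ratio was −4.67 ± 0.406 in young libraries and −3.96 ± 0.384, −3.97 ± 0.167 and −4.17 ± 0.481 at 12, 18 and 24 months (SD, n = 5 each). The differences from young were 0.71 (two-sided exact permutation p = 0.0397), 0.70 (exact p = 0.0159) and 0.50 (exact p = 0.119). Adjusted over the 9 ratio tests made, these exact p-values were 0.179, 0.143 and 0.268, and none passed 0.05. The smallest p that 5 against 5 libraries allow is 0.00794. Young replicate 1 had the highest young ratio, −4.15, and it lay above 2, 1 and 2 of the 5 libraries of the 12-, 18- and 24-month groups.

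*Fxyd3* encodes an FXYD protein of epithelia that also modulates the pump, and it lies at chr7:31070535-31076697. Its normalized counts in young libraries were 2779.9, 2387, 2466, 2279 and 2508. At 12 months they were 2039.65, 2012, 2088, 2869 and 2869.8, so 3 libraries lay below and 2 above the whole young range. At 18 months they were 2269.7, 2193, 2300.2, 2181 and 2142, and at 24 months 2024, 1944, 2193, 1914 and 2313. Of the 15 aged libraries, 11 were below all young ones, 4 of them at 18 months and 4 at 24 months. The share of all genes with such a count was not worked out. The largest mean difference was at 24 months, 2078 ± 171 against 2484 ± 187, a log2 difference of −0.26 (SE 0.109, unadjusted p = 0.0252, limma adjusted p = 0.408), which did not pass the threshold. The 12-month and 18-month differences were −0.08 (limma adjusted p = 0.887) and −0.16 (limma adjusted p = 0.865).

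*Fxyd5*, which encodes dysadherin, a FXYD protein that binds the pump and weakens cell adhesion, lies at chr7:31032723-31042331, near *Fxyd3* on the same strand. It was close to the limit of detection, with 0 to 27 reads per library. Its normalized counts were 26.3, 13.5, 0, 0 and 25.6 in young libraries and 16.5, 9.21, 6.43, 0 and 2.55 at 12 months. At 18 months they were 3.66, 21.1, 0, 3.58 and 22.2, and at 24 months 14.6, 2.44, 1.89, 1.74 and 1.88. A count of 0 reads allows up to 3 reads, or 2.25 to 3.95 normalized reads in these libraries. The ages overlapped throughout, and 2 young libraries were at 0. The log2 differences were −0.23, 0.01 and −0.62 (two-sided exact permutation p = 0.857, 1 and 0.619), so no difference was detectable at this depth. The log2 ratio of *Fxyd3* to *Fxyd5* differed from young by 0.15, −0.17 and 0.36, with adjusted exact permutation p = 0.889 at each age.

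*Aqp5*, the aquaporin of tear gland and corneal surface cells, lies at chr15:99591028-99594829. Its mean was 16745 ± 1891 in young libraries and 18325 ± 2707, 17371 ± 764 and 17112 ± 2443 at 12, 18 and 24 months. The log2 differences were 0.12, 0.06 and 0.03 (limma adjusted p = 0.812, 0.978 and 0.970), and over the aged libraries the fold had a 95% interval of 0.920 to 1.197. The 18-month libraries were the most alike, from 16169 to 18178, with a coefficient of variation of 4.40% against 11.3% to 14.8% at the other ages. The difference in spread was not tested.

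*Aqp3*, an aquaporin that also passes glycerol, lies at chr4:41092724-41098183. Its mean was 5320.04 ± 613 in young libraries and 5319.7 ± 935, 5498 ± 951 and 4910.05 ± 708 at 12, 18 and 24 months. The log2 differences were −0.01, 0.04 and −0.12 (limma adjusted p = 0.992, 0.988 and 0.814). Over the aged libraries the interval for the fold was 0.838 to 1.14. The log2 ratio of *Aqp3* to *Aqp5* within libraries differed from young by −0.14, −0.02 and −0.15 (adjusted exact permutation p = 0.268, 0.889 and 0.271).

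*Scnn1a*, the pore-forming alpha subunit of ENaC, lies at chr6:125314271-125344943. Its mean was 373 ± 63.7 in young libraries and 385 ± 87.7, 382 ± 54.9 and 315 ± 39.7 at 12, 18 and 24 months. The 24-month libraries held 279.9, 315, 382, 296 and 301 normalized reads, of which 1 was below the lowest young value of 289. The log2 difference at 24 months was −0.24 (95% interval −0.58 to 0.11, limma adjusted p = 0.682), and those at 12 and 18 months were 0.03 and 0.04 (limma adjusted p = 0.980 and 0.992). The other ENaC subunits were near the limit of detection. *Scnn1b* had 0 to 8 reads and *Scnn1g* 0 to 17 reads in young libraries, with means of 2.65 and 4.38 normalized reads, and neither entered the fit.

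*Slc12a2* encodes NKCC1, which loads the cell with chloride and sodium from the basolateral side. Its normalized counts in young libraries were 6155, 5542, 5753, 6183 and 6519. Its means were 6030.4 ± 385 in young libraries and 5606 ± 388, 5549 ± 424 and 5442 ± 331 at 12, 18 and 24 months. Of the 15 aged libraries, 9 lay below all young ones and none above them. How many of all genes reach such a count was not worked out. The log2 differences were −0.11, −0.12 and −0.15 (limma adjusted p = 0.785, 0.882 and 0.614) and none passed. Within ages its deviations ran against the log2 size factor of the library with r = −0.76 over the 20 libraries, the strongest such relation among the members. Under the other settings tried, quantile normalization and scaling by total reads among them, the differences were −0.17 to −0.11 at 12 months, −0.13 to −0.12 at 18 months and −0.15 to −0.090 at 24 months, and none passed.

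**Figure D2:**
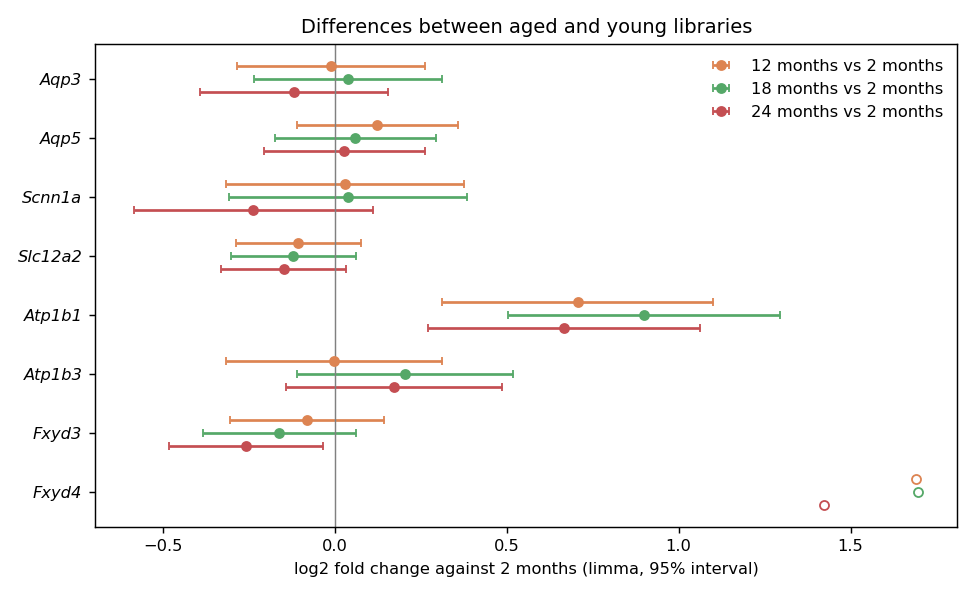
Fitted log2 fold change against 2 months (horizontal axis) of the 8 members in the fit, with bars for the 95% interval of limma. *Fxyd4* has open symbols and no bar because it was chosen for its rise. The *Atp1b1* intervals lie above 0 at all 3 ages and that of *Fxyd3* below 0 at 24 months, before adjustment over all genes.

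Some members also varied together between libraries of one age. Each library's deviation from the mean of its age was compared for all 36 pairs of members, with 100000 permutations within ages and adjustment over the 36 pairs. *Aqp3* and *Scnn1a* had r = 0.83 (rho = 0.76, adjusted permutation p = 0.00198), and r = 0.70 without the 2 libraries farthest from the median. *Aqp3* and *Aqp5* had r = 0.73 (rho = 0.74, adjusted permutation p = 0.00648), and 0.63 without those 2. *Aqp5* and *Scnn1a* had r = 0.74 (rho = 0.74, adjusted permutation p = 0.0151), and 0.57 without the 2 farthest. *Aqp5* and *Atp1b3* ran in opposite directions with r = −0.83 (rho = −0.81, adjusted permutation p = 0.00198), and −0.79 without them. These were the 4 pairs that passed.

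Some single libraries followed the pattern and others did not. The 12-month replicate 1 had the lowest *Aqp5* of all, 14158, together with the lowest *Aqp3*, 3885, the lowest *Scnn1a*, 253, and a high *Atp1b3*, 4794. Young replicate 1 had the highest young *Aqp5*, 19452, and the lowest *Atp1b3* of all 20 libraries, 2656. Young replicate 2 had the lowest young *Aqp5*, 14591, yet its *Aqp3*, 5185, and its *Atp1b3*, 3637, were the young medians. The first principal component of the deviations of all tested genes other than the members held 15.97% of their variance. It correlated with *Aqp5* at r = 0.79, *Aqp3* at 0.61, *Slc12a2* at 0.56, *Scnn1a* at 0.55 and *Atp1b3* at −0.86. With that component removed, 1 pair passed, *Aqp3* and *Scnn1a*. After quantile normalization 1 pair passed as well, and after scaling by total reads 2. Within ages the genes of these pairs also ran with the log2 size factor of the library. The r was −0.46 for *Aqp3*, −0.49 for *Aqp5*, −0.34 for *Scnn1a* and 0.49 for *Atp1b3*. The part of library scaling in these pairs was not tested, nor was what the component reflects.

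*Fxyd4* and *Atp1b1* stood apart from this axis, with r = 0.05 and 0.01 against the component. Over all 20 libraries their log2 values had r = 0.80, which includes the shared difference between young and aged libraries. Within ages r was 0.45, which did not pass the adjustment over the pairs (adjusted permutation p = 0.289).

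**Figure D3:**
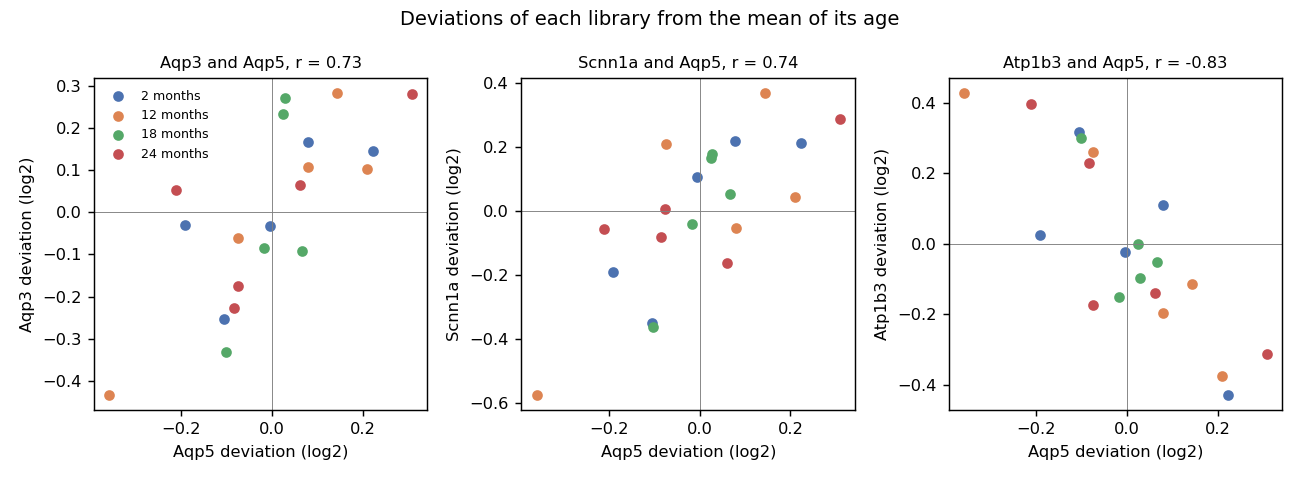
Deviation of each library from the mean of its age (log2) for *Aqp3*, *Scnn1a* and *Atp1b3* (vertical axes) against that of *Aqp5* (horizontal axis), with 1 point per library coloured by age. *Aqp3* and *Scnn1a* go with *Aqp5* (r = 0.73 and 0.74) and *Atp1b3* goes against it (r = −0.83). The pairs drawn did not pass after quantile normalization or with the first component removed.

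Outside the 9 members, the genes whose log2 values were most like those of *Fxyd4*, *Atp1b1* and *Aqp5* over the 20 libraries were listed by Pearson's r, as a description. For *Fxyd4* these were *Fam25c* (r = 0.83), the mitochondrial carbonic anhydrase *Car5b* (0.80), the actin-binding *Lima1* (0.78), the mitochondrial ATP carrier *Slc25a4* (0.78) and *Triap1* (0.78). Within ages their r with *Fxyd4* was 0.30 to 0.65, highest for *Triap1*. For *Atp1b1* they were the retinal dehydrogenase *Aldh1a1* (0.76), *Fmo2* (0.73), *Slc25a4* (0.73), *Ddah1* (0.72) and *Ptprd* (0.71), with r of 0.18 to 0.42 within ages. For *Aqp5* they were *Rrbp1* (0.93), *Arhgap32* (0.90), *Jund* (0.86), the chaperone *Hspa5* (0.86) and *Trib1* (0.85). The *Aqp5* likeness was as strong within ages, at 0.85 to 0.94, whereas that of *Fxyd4* and *Atp1b1* was lower within ages.

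Around the members, 80 other genes of water and ion transport in 7 lists were looked up, of which 38 had enough reads to be tested. In limma, 0 of the 38 were called at 12, 18 or 24 months, over the aged libraries or between 24 and 12 months. Of all 11288 genes, 0.532%, 0.673%, 0.78%, 1.01% and 0.195% were called in turn, so 0 of 38 is near that share. An unadjusted limma p under 0.05 was found for 9, 6, 7, 6 and 6 of the 38. Of all genes, 9.56%, 7.18%, 9.97%, 7.89% and 14.7% had such a p in the same comparisons.

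The 4 other FXYD genes, *Fxyd1*, *Fxyd2*, *Fxyd6* and *Fxyd7*, were all below the filter, with means over all libraries of 2.76, 0.362, 3.17 and 0.387 normalized reads.

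Of 10 other aquaporins, *Aqp1*, the water channel of corneal stroma and endothelium, and *Aqp2*, that of the collecting duct, were tested. *Aqp1* had means of 51.4 ± 21.6, 27.1 ± 21.98, 29.9 ± 30.5 and 15.9 ± 7.88 normalized reads at 2, 12, 18 and 24 months, with log2 differences of −1.08, −1.09 and −1.66 (limma adjusted p = 0.545, 0.702 and 0.218). The stromal marker sums had lower medians at the same ages, and their part in the *Aqp1* values was not tested. *Aqp2* was at 41.0 ± 11.7 in young and 37.6 to 48.4 in the aged groups (limma adjusted p = 0.974, 0.989 and 1.000). The list's median log2 difference was −0.50, −0.59 and −0.83, where that of all tested genes was −0.01, −0.0011 and 0.0052. With 2 genes tested, that median is the midpoint of *Aqp1* and *Aqp2*, and *Aqp2* itself differed by 0.08, −0.09 and 0.0033.

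Of 13 ENaC subunits and regulators, 9 were tested and their medians were −0.0039, 0.07 and 0.17. *Spink5*, an inhibitor of the kallikrein proteases of squamous epithelium, had means of 1209 ± 377, 1861 ± 201, 1696 ± 288 and 2084 ± 1018, with log2 differences of 0.67, 0.53 and 0.70 (limma adjusted p = 0.274, 0.600 and 0.204). The aged libraries together gave 0.63 (limma adjusted p = 0.116). The kinase *Sgk1*, which keeps ENaC at the membrane, was at 1105 ± 198 in young libraries and 1068 to 1105 in the aged groups, with log2 differences between −0.04 and −0.0039.

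Of 15 other cation-chloride cotransporters and kinases of their pathway, 10 were tested, with medians of −0.36, −0.13 and −0.12. The kinase *Wnk1* differed from young by −0.02, 0.07 and −0.11 (limma adjusted p = 0.9751, 0.978 and 0.796), and *Cul3*, a ubiquitin ligase scaffold that controls WNK kinases, by −0.02, 0.09 and −0.13 (limma adjusted p = 0.986, 0.978 and 0.815).

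Of 15 chloride and potassium channels, 8 were tested, with medians of −0.26, 0.10 and −0.11. The endosomal chloride and proton exchanger *Clcn3* differed by 0.05, 0.11 and −0.08 and the volume-regulated anion channel subunit *Lrrc8a* by −0.27, 0.08 and −0.13, with limma adjusted p from 0.619 to 0.978.

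Of 14 sodium-proton exchangers, bicarbonate transporters and related genes, 7 were tested, with medians of −0.18, −0.20 and 0.25. *Slc9a3r1*, a scaffold that anchors transporters at the apical membrane, had differences of −0.40, −0.33 and −0.28 (limma adjusted p = 0.240, 0.543 and 0.485), and the sodium bicarbonate cotransporter *Slc4a7* of 0.32, 0.17 and 0.41 (limma adjusted p = 0.551, 0.931 and 0.377).

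**Figure D4:**
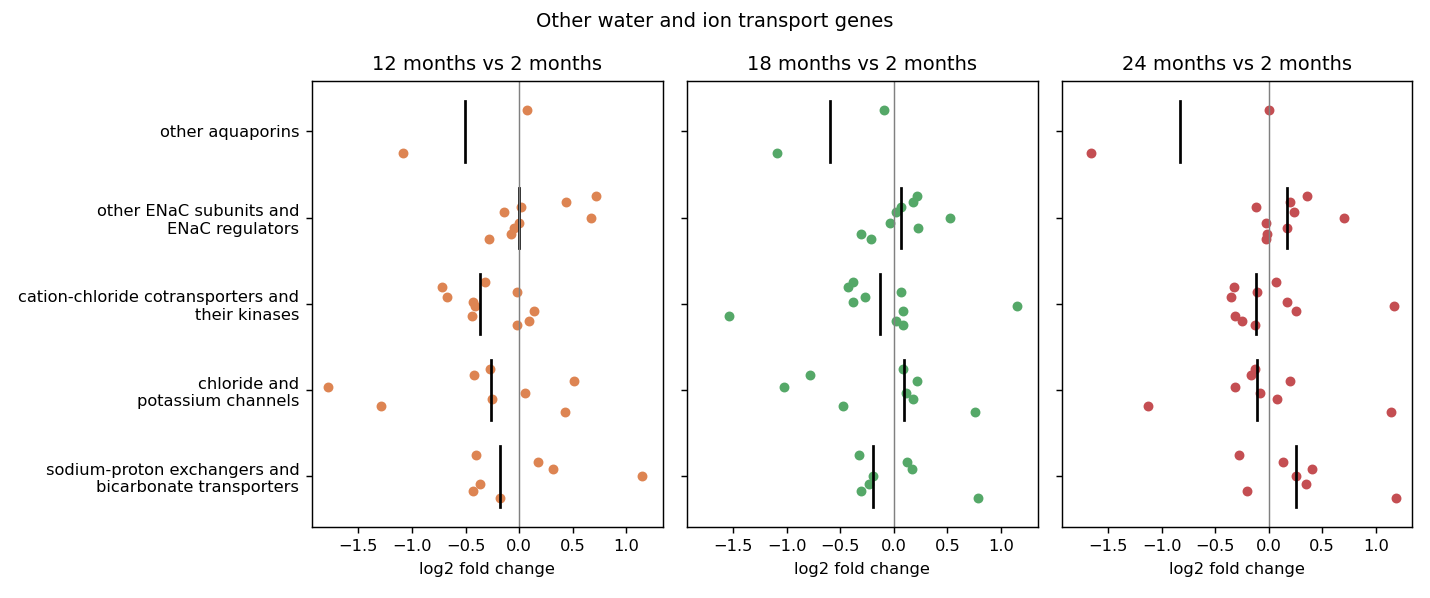
Fitted log2 fold change against 2 months (horizontal axis) of the tested genes in the 5 lists of other water and ion transport genes described here, with 1 panel per age. Points are genes and the black line is the median of the list. The points lie on both sides of 0 in most lists, and none passed the threshold.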

How the data were processed

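Epithelium was debrided from both corneas of each mouse and 100 ng of total RNA entered an oligo-dT primed library. The authors trimmed reads with cutadapt, aligned them with STAR to GRCm38, counted them per gene with HTSeq and divided the counts by DESeq2 size factors (versions are not given in the sources used here). The deposited values are log2(normalized count + 1), 1 column per library. Columns with the authors' own fold changes, p-values, adjusted p-values and mean signals were not used, nor were the tables that hold a subset of the libraries.

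Normalized counts were obtained as 2 to the power of the deposited value, less 1. Whole read counts were recovered from the steps of the low values in each library: 100% of values came out within 0.05 of a whole read. Total reads were 6699383 to 10762360 per library and size factors 0.760 to 1.33. Intervals and floors that rest on reads cover counting error only, since reads carried no molecular identifiers.

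Genes averaging 10 or more normalized reads were tested with limma 3.58.1 (trended variance, R 4.3.3) on the deposited log2 values in all 20 libraries, with Benjamini-Hochberg adjustment over the 11288 genes. The fold changes are therefore on the log2(value + 1) scale, which understates those of low genes. Ratios and *Fxyd5* were compared by exact permutation of 5 against 5 libraries (252 splits, two-sided). Python 3.11.15 with scipy 1.17.1 was used. The fit was tested on simulated data. The members and gene lists were chosen with earlier results of these data known. Besides the members, the genes named are the 2 tested genes with the highest mean in each list described (1 list is counted in the totals but not reported here), any list gene called, and the 5 genes most like *Fxyd4*, *Atp1b1* and *Aqp5*. Replicate numbers did not pair the libraries. The aged groups share the young libraries, so their differences are not independent. Alternatives were quantile normalization, scaling by total reads, other filters, pseudocounts (0.1 and 10) and fold thresholds (none and 1.5), fits of only the 2 groups compared, a replicate block, voom on the recovered reads, and leaving out each library. Removal of the first component was added after seeing the data.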

Additional observations from a re-analysis of the deposited data

Results flagged for a closer look

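Of 48 groups of 5 libraries, the counts of 9 members and 3 ratios at 4 ages, 2 had 1 library far from the others by Dixon's criterion, which chance meets in about 1 in 20 groups. *Fxyd5* stood at 14.6 normalized reads in 24-month replicate 1, where the other 4 libraries held 1.74 to 2.44. The log2 ratio of *Fxyd3* to *Fxyd5* in that library was 7.02, against 9.14 to 9.65 in the others, and it rests on the same count of 15 *Fxyd5* reads.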

How the results depend on the processing

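*Atp1b1* remained called at 18 months under 11 of 11 other settings (limma adjusted p 0.0127 to 0.0294) and over the aged libraries under 10 of 10 (0.00703 to 0.0167). Leaving out each library gave 0 to 1 members called at 12 and at 18 months, 0 to 1 list genes called at 24 months and over the aged libraries, and 2 to 5 correlated pairs, 2 without 12-month replicate 1. Of the list genes, 1 was called at 24 months with no low-expression filter (*Aqp4*), and over the aged libraries 1 with the replicate block (*Spink5*, adjusted p = 0.0360) and 1 with voom (*Aqp1*, adjusted p = 0.0462). Without 24-month replicate 5, *Spink5* was called at 24 months and over the aged libraries (limma adjusted p = 0.0425 and 0.0446). Correlated pairs numbered 1 after quantile normalization, 2 with scaling by total reads, 7 with the replicate block and 1 without the first component, against 4. The replicate numbers did not pair the libraries: 3 of 30 same-numbered pairs had r over 0.1. The block changed no member's call.

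Small differences changed sign. *Atp1b3* at 12 months was 0.0015 with voom. Between 24 and 12 months, *Aqp5* was 0.013 and *Slc12a2* 0.035 after quantile normalization, and scaling by total reads gave 0.027 for *Atp1b1* and 0.023 for *Slc12a2*. With a pseudocount of 0.1 the log2 ratio of *Fxyd3* to *Fxyd5* differed by −0.39 at 12 and −0.57 at 24 months. Leaving out single libraries gave −0.082 to 0.097 for *Aqp3*, −0.11 to 0.091 for *Atp1b3* and −0.062 to 0.17 for *Scnn1a* at 12 months, −0.030 to 0.12 for *Aqp3* and −0.049 to 0.13 for *Scnn1a* at 18 months, −0.050 to 0.083 for *Aqp5* at 24 months, −0.095 to 0.011 for *Aqp3* over the aged libraries, and −0.19 to 0.10 for *Atp1b1* between 24 and 12 months. The ratio of *Aqp3* to *Aqp5* ranged from −0.082 to 0.036 at 18 months, and that of *Fxyd3* to *Fxyd5* from −0.53 to 0.82, −0.86 to 0.49 and −0.15 to 1.03. The causes were not tested.

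Over all genes, 60 calls at 12 months became 38 with voom, 39 with only the 2 groups fitted, and 96, 39 and 38 without young replicate 1, 3 or 5. The 88 calls at 24 months became 54 and 57 without 24-month replicate 3 or 4. The 22 calls between 24 and 12 months became 10 with scaling by total reads (7 higher, against 12 of 22), 0 with no filter, 35 with a filter at a mean of 50, and 11 with the block or only those groups. They ranged from 0 (without 24-month replicate 1, 2, 3 or 5, or 12-month replicate 5) to 84 (without young replicate 1) when single libraries were left out, so the 0.195% set beside the members rests on single libraries. *Fxyd5*, *Scnn1b* and *Scnn1g* were limited by depth.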

Other observations

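*Aqp4*, the water channel of glia and of several epithelia, was below the filter and was singled out after its values were seen. It had at most 1 read in young libraries, 4 of 5 of which were at 0, 0 to 7 reads at 12 months, 0 to 14 at 18 months and 4 to 25 at 24 months. Its mean was 0.1499 normalized reads in young libraries and 2.54, 8.43 and 10.99 at 12, 18 and 24 months. With no low-expression filter its log2 difference at 24 months was 3.18 (limma adjusted p = 0.0498), a value that depends on the 1 added before the log.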
